A study of Mus musculus with 5 samples.

Results

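Endothelial and sinusoidal vessel genes, 10 in number, were described across the bulk RNA-seq of CRC tumours exposed to 30 °C or 4 °C. They were chosen by symbol, with earlier results of these data known, as Pecam1, Cdh5, Kdr, Flt1, Flt4, Tek, Tie1, Eng, Emcn and Stab2, and all 10 were found among the 54113 named entries of the table. The samples were 3 tumours at 30 °C and 2 tumours at 4 °C, each exposed for 2 weeks, from C57BL/6 mice, with no other agent or allele given in the labels for either group. The study's methods describe its mouse CRC model as MC-38 cells, a colon adenocarcinoma line, implanted into such mice. The study's RNA-seq legend counts the 3 samples at 30 °C and the 2 at 4 °C as biological. The labels do not say whether the tumours of a group came from separate mice. Tests therefore measure the spread between these samples, which may in part be technical. Values are CPM, that is, the reads counted on a gene divided by the library total after scaling by the trimmed mean of M values (TMM) and set to a library of 1000000 counts. The libraries held 16191708 to 20320525 counts on named genes.

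Endothelial cells line every vessel and are recognised by adhesion molecules at their contacts, of which PECAM1 (CD31) and VE-cadherin are the best known. Their growth is driven by vascular endothelial growth factors (VEGFs) through receptor tyrosine kinases, and vessel stability by angiopoietins through TEK and its partner TIE1. Sinusoids, the wide and leaky capillaries of liver, spleen and bone marrow, carry scavenger receptors such as STAB2. The study stained CD31-positive microvessels of CRC tumours at both temperatures and reported a lower density at 4 °C. Staining shows protein in sections, whereas the values here are RNA of whole tissue. The comparison of 4 °C with 30 °C asks how vessel transcripts stood in libraries labelled as such tumours. The libraries also held B cell, erythroblast and splenic mesenchyme transcripts, given below. How much of the vessel transcripts came from tumour vessels was not tested.

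The 5′ flanks of the members that the results turn on are given first. Of the 10 genes, 8 had a start site in the RefSeq promoter table (GRCm38.p6), and Pecam1 and Cdh5 had no entry. The 250 bases before each RefSeq start were searched on both strands for 6 motifs. ETS family factors bind cores such as GGAAGT, and the other ETS form searched was CCGGAA, which can overlap it. Members of the SP and KLF families bind GGGCGG. The core promoter box bound by TBP was searched as TATAAA. The form for zinc-finger factors of the GATA family was AGATAA. The hypoxia response core was ACGTG. Kdr and Flt1 are shown as the VEGF receptors that varied most between tumours, Emcn as the member whose profile differed from the others, and Stab2 as the sinusoidal member. Sequences run 5′ to 3′ on the strand of the gene, capitals mark matches on either strand, and bases that GENCODE counts as part of the gene were left out.
Kdr, chr5:75978459-75978705, minus strand: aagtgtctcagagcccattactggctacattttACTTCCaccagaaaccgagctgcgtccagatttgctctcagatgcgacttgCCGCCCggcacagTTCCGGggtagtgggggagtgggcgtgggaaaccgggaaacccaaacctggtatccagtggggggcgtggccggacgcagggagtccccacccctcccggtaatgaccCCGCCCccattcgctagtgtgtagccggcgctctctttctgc
Flt1, chr5:147726012-147726261, minus strand: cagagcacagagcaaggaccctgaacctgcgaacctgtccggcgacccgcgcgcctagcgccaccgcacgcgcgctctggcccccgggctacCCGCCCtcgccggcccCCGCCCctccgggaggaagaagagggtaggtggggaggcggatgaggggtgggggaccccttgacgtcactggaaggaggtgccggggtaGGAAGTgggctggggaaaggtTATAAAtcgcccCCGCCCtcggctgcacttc
Emcn, chr3:137340828-137341066, plus strand: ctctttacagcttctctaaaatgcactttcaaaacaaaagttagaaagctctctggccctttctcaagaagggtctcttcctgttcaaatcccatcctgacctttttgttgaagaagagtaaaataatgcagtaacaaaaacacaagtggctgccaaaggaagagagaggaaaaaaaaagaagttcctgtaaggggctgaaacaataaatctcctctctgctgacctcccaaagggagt
Stab2, chr10:87008026-87008192, minus strand: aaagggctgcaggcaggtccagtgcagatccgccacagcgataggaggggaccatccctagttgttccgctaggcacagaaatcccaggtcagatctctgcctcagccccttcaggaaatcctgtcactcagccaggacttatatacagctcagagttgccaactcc

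GGAAGT was found before Eng, Flt1, Kdr and Tie1, 4 of 8 members, and in 20% of 27018 RefSeq promoters of the same length. CCGGAA was found before Kdr, 1 of 8, against 12.2% of promoters. GGGCGG was found before Flt1, Flt4 and Kdr, 3 of 8, against 32.9%, and TATAAA before Flt1, 1 of 8, against 13%. AGATAA, in 10.3% of promoters, and ACGTG, in 16.6%, had 0 matches among the 8 members. These letters were therefore not in the windows of Emcn, Stab2 and Tek in any of the 6 forms searched. The GC content was 40.8% before Emcn and 70.4% before Flt1, the ends of the range over the 8 members, and the median over all promoters was 52%. The matches describe the sequence and are not evidence of binding.

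The genes lie on 7 chromosomes of GRCm38 (GENCODE M21). Pecam1 is at chr11:106654217-106750628 and Flt4 at chr11:49609263-49652739, Kdr at chr5:75932827-75978458 and Flt1 at chr5:147561604-147726011, and Tek at chr4:94739289-94874976 and Tie1 at chr4:118471191-118490061. Cdh5 is at chr8:104101625-104144511, Eng at chr2:32646595-32682669, Emcn at chr3:137341067-137432185 and Stab2 at chr10:86841198-87008025. Pecam1, Flt1, Kdr, Stab2 and Tie1 are on the minus strand and the others on the plus strand.

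All 10 vessel genes were detected in every tumour, and none differed between temperatures by the test used. With the quasi-likelihood test of edgeR, 0 of 10 genes had a Benjamini-Hochberg adjusted p under 0.05, where 0% of 16133 tested genes had one, and the smallest adjusted p over all genes was 0.689. At an unadjusted p under 0.05 there were 0 of 10 vessel genes, against 6.76% of all tested genes (2.58% higher and 4.17% lower at 4 °C). DESeq2 called 0 of the 9 vessel genes to which it gave an adjusted p, against 1.01% of 11697 genes, and gave none to Emcn. The estimates were higher at 4 °C for 5 genes and lower for 5, with a median log2 fold change of -0.0018, beside 0.0064 over all tested genes. The 3 values at 30 °C and the 2 values at 4 °C overlapped for each of the 10 genes, whereas the groups did not overlap for 23.3% of tested genes. The limits of the estimates were wide, with a median half-width of 0.80 (log2) of the 95% confidence interval, and for 7 of 10 genes the interval lay within 1 log2 unit on either side of 0. In bulk tissue, fewer endothelial cells and less RNA of a gene per cell cannot be told apart.

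**Figure D1:**
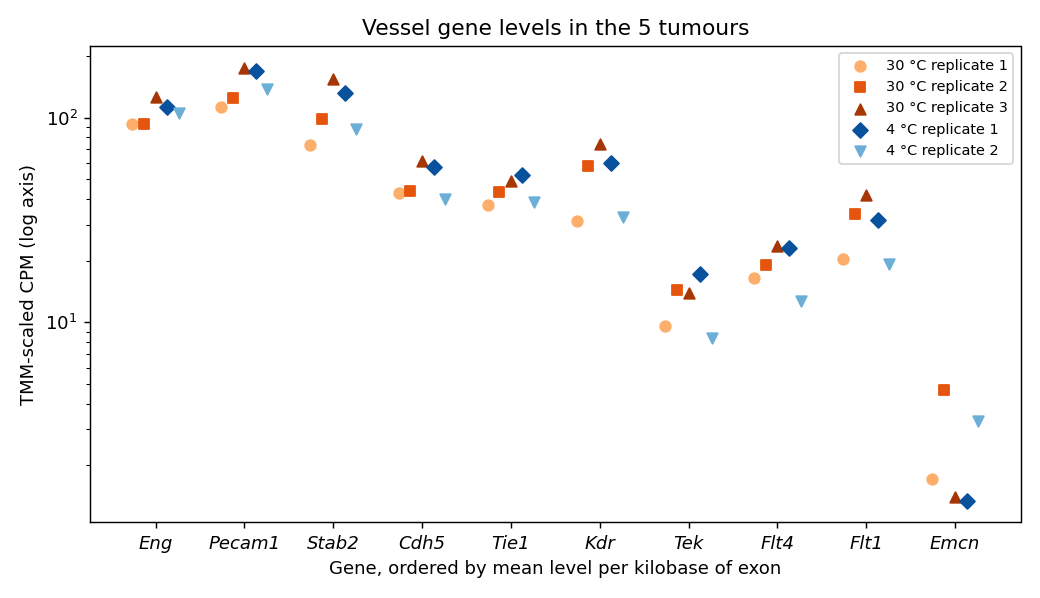
TMM-scaled CPM (log axis) of each vessel gene in each of the 5 tumours, with 1 point per tumour and genes ordered by their mean level per kilobase of exon. The tumours at 4 °C (blue) overlap the tumours at 30 °C (orange) for every gene, and Emcn lies far below the others.

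The adhesion genes of endothelial contacts overlapped between temperatures. Pecam1, which encodes the CD31 antigen of vessel staining, had 113, 125 and 175 CPM in the tumours at 30 °C replicate 1, 2 and 3 and 169 and 138 CPM at 4 °C replicate 1 and 2. Both values at 4 °C lay inside the range at 30 °C. The log2 fold change of 4 °C against 30 °C was 0.16 (SE 0.24, edgeR adjusted p = 0.919), which as a ratio is 1.11 with a 95% confidence interval from 0.748 to 1.66. PECAM1 is also made by platelets, megakaryocytes and some leukocytes, so its transcript is not limited to endothelium. Cdh5, encoding VE-cadherin of the adherens junction and largely restricted to endothelium, had 42.6, 43.7 and 61.6 CPM at 30 °C and 57.3 and 40.0 CPM at 4 °C. The tumour at 4 °C replicate 2 had the lowest value of the 5 and the tumour at 30 °C replicate 3 the highest. Its ratio was 0.986 (95% confidence interval 0.645 to 1.51, edgeR adjusted p = 0.988).

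The 3 VEGF receptors had estimates below 0, each smaller than its standard error. Kdr (VEGFR2), the main signalling receptor for VEGF-A, had 31.1, 57.8 and 73.9 CPM at 30 °C and 59.9 and 32.7 CPM at 4 °C. The tumours fell into lower values in 30 °C replicate 1 and 4 °C replicate 2 and higher values in the other 3, across the temperature groups. The log2 fold change was -0.23 (SE 0.42, edgeR adjusted p = 0.932). Flt1 (VEGFR1), which binds VEGF-A, VEGF-B and PlGF and can act as a decoy, had 20.3, 33.9 and 41.7 CPM at 30 °C and 31.6 and 19.3 CPM at 4 °C. The order of the 5 tumours was close to that of Kdr, with 30 °C replicate 3 highest. Its log2 fold change was the most negative of the 10 at -0.33 (SE 0.36, 95% confidence interval -1.20 to 0.54, edgeR adjusted p = 0.885). Flt4 (VEGFR3), the receptor for VEGF-C and VEGF-D that marks lymphatic and some sinusoidal endothelium, had 16.5, 19.0 and 23.7 CPM at 30 °C and 23.1 and 12.6 CPM at 4 °C. The tumours at 4 °C held both the lowest value and the second highest. The log2 fold change was -0.14 (SE 0.31, edgeR adjusted p = 0.945).

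The Tie receptors and endoglin had estimates close to 0. Tek (TIE2), the receptor for angiopoietins, had 9.53, 14.3 and 13.9 CPM at 30 °C and 17.2 and 8.33 CPM at 4 °C. The 2 tumours at 4 °C were the highest and the lowest of the 5. Its ratio was 1.02 (95% confidence interval 0.552 to 1.87, edgeR adjusted p = 0.991). Tie1, an orphan receptor that pairs with TEK, had 37.6, 43.0 and 49.0 CPM at 30 °C and 52.6 and 38.8 CPM at 4 °C, and its ratio was 1.06 (0.740 to 1.51, edgeR adjusted p = 0.955). It varied least at 30 °C, where its highest value was 1.31 times its lowest. Eng, the endoglin co-receptor for BMP9 and other TGF-β family ligands, had 93.2, 93.3 and 126 CPM at 30 °C and 113 and 105 CPM at 4 °C. Both tumours at 4 °C lay between the values at 30 °C. Its ratio was 1.04 (0.745 to 1.46, edgeR adjusted p = 0.963). Of the exon bases of Eng, 61 are also exon of Fpgs on the opposite strand. Fpgs itself had 435 to 686 counts, against 1136 to 2896 counts of Eng, and the strand setting of the counting is not given in the sources used here. For Stab2, 141 exon bases are shared with Gm16268 on the opposite strand, which had 3 to 9 counts.

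Emcn and Stab2 mark particular vessel beds. Stab2, the hyaluronan scavenger receptor of sinusoidal endothelium, had 73.5, 97.8 and 154 CPM at 30 °C and 132 and 87.5 CPM at 4 °C. At 30 °C its highest value was 2.10 times its lowest, and both values at 4 °C fell in that range. Its log2 fold change was 0.02 (SE 0.35, edgeR adjusted p = 0.992). Emcn, encoding the sialomucin endomucin of capillary and venous endothelium, had 1.70, 4.68 and 1.40 CPM at 30 °C and 1.34 and 3.30 CPM at 4 °C. These rest on 32, 57, 32, 27 and 55 counts. In 30 °C replicate 2 the 95% exact Poisson interval ran from 3.55 to 6.07 CPM, above that of 30 °C replicate 1 at 1.16 to 2.40 CPM (counting error only, since reads from PCR are not independent molecules). The log2 fold change was -0.15 (SE 0.68, edgeR adjusted p = 0.974), with an interval from -1.78 to 1.49 that was the widest of the 10.

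**Figure D2:**
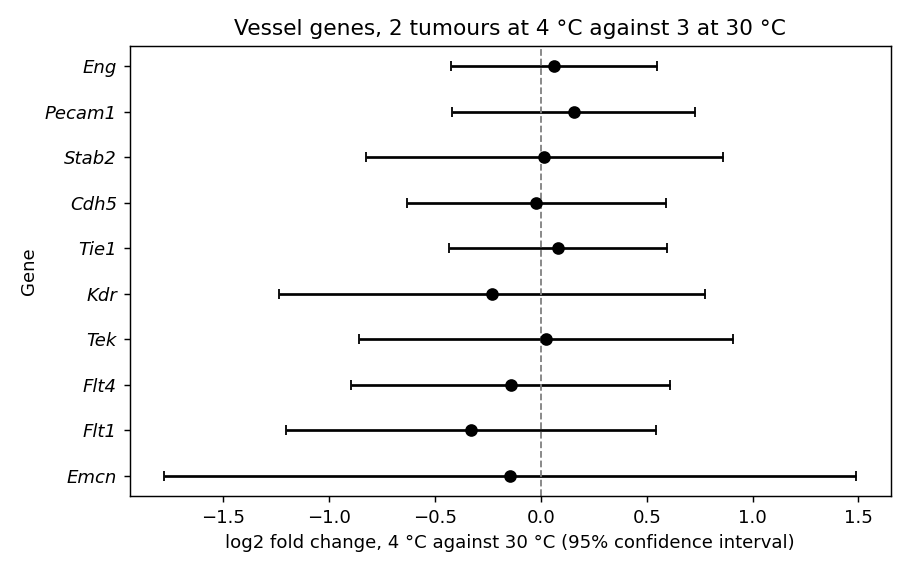
Log2 fold change of each vessel gene, 2 tumours at 4 °C against 3 at 30 °C (points, edgeR), with the 95% confidence interval (bars). Every interval contains 0, and that of Emcn is the widest, from -1.78 to 1.49.

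For 8 of the 10 genes the direction of the estimate turned when a single tumour was left out, and for Pecam1 and Flt1 it did not. Without 30 °C replicate 1, only 1 of 10 genes had an estimate higher at 4 °C, and without 4 °C replicate 1 there were 3. Without 30 °C replicate 3, or without 4 °C replicate 2, there were 8. The number of genes whose groups did not overlap was 0 with all 5 tumours. It was 4 of 10 without 4 °C replicate 1, where 59.5% of all tested genes did not overlap, and 3 of 10 without 4 °C replicate 2, where 49.4% did not. It was 2 of 10 without 30 °C replicate 3 (38.7% of all tested genes), 1 of 10 without 30 °C replicate 1 (38.9%) and 0 of 10 without 30 °C replicate 2 (29.2%). The counts of the vessel genes were thus below the share of all tested genes in each case. In each of these fits 0 of 10 genes were called by edgeR.

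Most of the variation of the vessel genes lay between tumours of the same temperature, and 9 of the 10 genes shared one order. Within 30 °C, 9 of 10 genes were higher in replicate 3 than in replicate 1, with a median ratio of 1.45, where 50.5% of all tested genes were higher. Within 4 °C, 9 of 10 were higher in replicate 1 than in replicate 2, with a median ratio of 1.47, where 49.1% of all tested genes were higher. The same 9 genes met both orders, as did 37% of all tested genes, and Emcn met neither. The tumour at 30 °C replicate 3 had the highest value of the 5 for 7 genes, 4 °C replicate 1 for Tek and Tie1, and 30 °C replicate 2 for Emcn. The lowest value was in 30 °C replicate 1 for 5 genes and in 4 °C replicate 2 for 4. These places depend on the scaling of 30 °C replicate 2, whose TMM factor was 0.738. Without TMM factors that tumour was the lowest for Pecam1 (92.2 CPM), Cdh5 (32.2 CPM), Tie1 (31.7 CPM), Eng (68.7 CPM) and Stab2 (72.0 CPM). The ratio of the highest to the lowest value at 30 °C had a median of 1.53 over the 10 genes (range 1.31 to 3.35) and 1.44 over all tested genes. At 4 °C the ratio of the higher to the lower tumour had a median of 1.57 (range 1.08 to 2.45), beside 1.31 over all tested genes. Since these genes share their libraries and their scaling, their common order is not a set of independent observations.

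**Figure D3:**
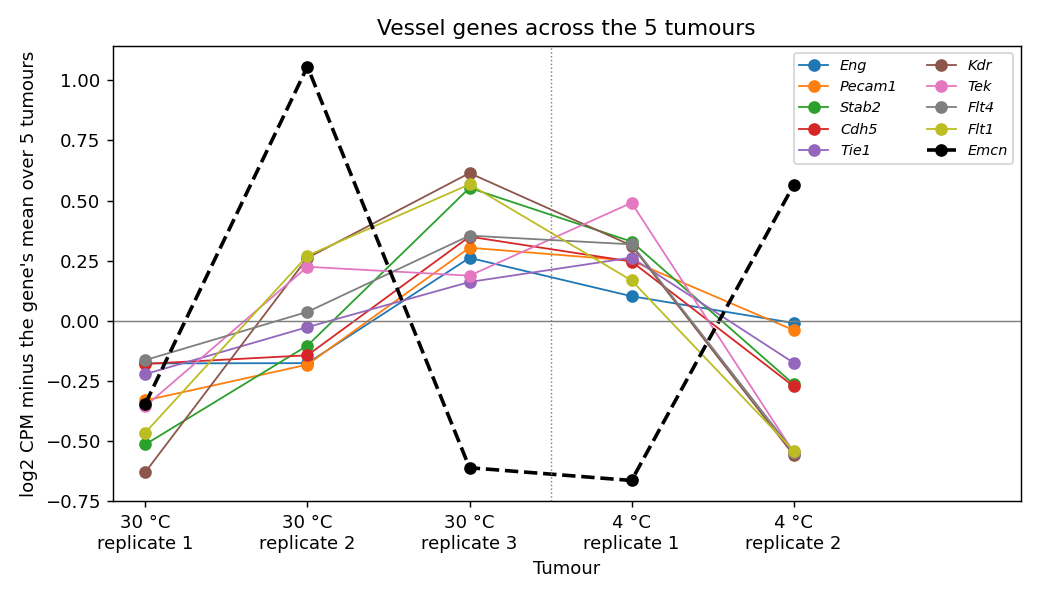
Log2 CPM of each vessel gene in each tumour, minus the mean of that gene over the 5 tumours, with tumours at 30 °C left of the dotted line and tumours at 4 °C right of it. Lines join 1 gene across tumours as a guide for the eye. Emcn (dashed) is highest in 30 °C replicate 2 and 4 °C replicate 2, while most other genes peak in 30 °C replicate 3 or 4 °C replicate 1.

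Levels were compared between genes per kilobase of exon, since a longer transcript gives more reads. Eng had the highest mean level over the 5 tumours at 26.2 CPM per kilobase, followed by Pecam1 at 23.1, Stab2 at 12.5, Cdh5 at 11.7 and Tie1 at 8.99 CPM per kilobase. The tyrosine kinase receptors for VEGFs and angiopoietins stood lower, with Kdr at 5.66, Tek at 2.69, Flt4 at 2.30 and Flt1 at 2.17 CPM per kilobase, and Emcn was last at 0.459. Among neighbours in this order, Stab2 was above Cdh5 in 4 of 5 tumours and Flt4 above Flt1 in 3 of 5, so these 2 pairs did not differ beyond the spread between tumours. Each other neighbouring pair kept its order in 5 of 5 tumours, although Eng exceeded Pecam1 by a ratio of only 1.03 and Tek exceeded Flt4 by 1.01 in the tumour where they were closest. For Flt1 the length used was 13504 bases, the union of all annotated exons, which may exceed the transcript present and so lower its level per kilobase.

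Ratios of levels per kilobase within a tumour do not depend on library scaling. Kdr stood at 2.29, 2.55 and 2.65 times Flt1 at 30 °C and at 2.84 and 2.54 times at 4 °C. The ratio spanned a factor of 1.24 over the 5 tumours. Tie1 stood at 2.89 to 4.47 times Tek, lowest in 30 °C replicate 2 and highest in 4 °C replicate 2. Relative to Cdh5, Kdr ranged from 0.340 to 0.616, with the lowest ratio in 30 °C replicate 1 and the highest in 30 °C replicate 2. Pecam1 stood at 1.79, 1.93 and 1.92 times Cdh5 at 30 °C and at 1.99 and 2.34 times at 4 °C. Stab2 ranged from 0.828 to 1.20 times Cdh5. Emcn varied most against Cdh5, from 0.0176 to 0.0833, a factor of 4.72. These ratios are given as descriptions, since 3 tumours against 2 allow 10 arrangements and a two-sided exact permutation p no smaller than 0.2.

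The libraries differed in their content of other cells, and most of their marker lists did not share the tumour order of the vessel genes. Both orders described above were met by 4 of 7 B cell markers. They were met by 0 of 7 markers each for neutrophils, erythroblasts, macrophages and megakaryocytes, against 37% of all tested genes. Pancreatic acinar transcripts of 20 genes took 26.8% of the counts of 30 °C replicate 2 and 0.266% of those of 4 °C replicate 2, against at most 0.0081% in the other 3. These 2 libraries are the ones in which Emcn was highest. Without both of them, which leaves only replicate 1 at 4 °C, Emcn had a log2 fold change of -0.22. In that fit 9 of 10 vessel genes had estimates above 0, against 48.4% of all tested genes. The tumour that remains at 4 °C was above 4 °C replicate 2 for 9 of 10 vessel genes. The groups then did not overlap for 3 of 10 vessel genes and for 60.6% of all tested genes. The sum of the 10 vessel genes was 439, 533 and 721 CPM at 30 °C and 657 and 486 CPM at 4 °C. Without TMM factors the sums were 472, 392 and 813 CPM at 30 °C and 710 and 501 CPM at 4 °C, lowest in 30 °C replicate 2. The 7 neutrophil markers summed to 12029, 8223 and 2787 CPM at 30 °C and 2394 and 3849 CPM at 4 °C, lowest in the 2 tumours with the highest vessel sum. The 7 B cell markers summed to 1212, 1701 and 2965 CPM at 30 °C and to 3390 and 3086 CPM at 4 °C. The 7 erythroblast markers, haemoglobins included, summed to 11831 to 35148 CPM and were lowest in 30 °C replicate 3, the tumour with the highest vessel sum. The 7 macrophage markers summed to 2963, 1423 and 1634 CPM at 30 °C and 1675 and 2513 CPM at 4 °C. They were highest in the 2 tumours with the lowest TMM-scaled vessel sum. The 7 megakaryocyte markers, from cells that also carry PECAM1, summed to 294, 470 and 303 CPM at 30 °C and 288 and 380 CPM at 4 °C, highest in the 2 acinar-rich libraries. The part of these cells in the vessel gene values was not tested.

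The labelled tissue was a tumour of a colon carcinoma model, and its epithelial markers summed to less than the vessel genes. The 10 epithelial and colon genes summed to 18.0 to 179 CPM, highest in the acinar-rich 30 °C replicate 2, and 6 of the 10 were above the floor of 3 counts in every tumour. Cdh1 (E-cadherin) had 86, 403 and 81 counts at 30 °C and 42 and 53 counts at 4 °C, and Cldn7 had 10 to 68 counts. Cdx2 and Vil1, intestinal genes named after their values were seen, had 8 counts or fewer in every tumour. The 3 transcription factors of splenic mesenchyme, Tlx1, Nkx2-5 and, named after its values were seen, Nkx2-3, were present in all 5 tumours and summed to 38.8, 32.5 and 41.3 CPM at 30 °C and 61.2 and 57.2 CPM at 4 °C. All 3 had groups that did not overlap, being higher at 4 °C, where 12.2% of all tested genes were, and 11% were lower without overlap. Stab2 is among the genes that sinusoids of the spleen express, and it was 73.5 CPM or more in every tumour. The part of non-tumour tissue in its level was not tested.

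**Figure D4:**
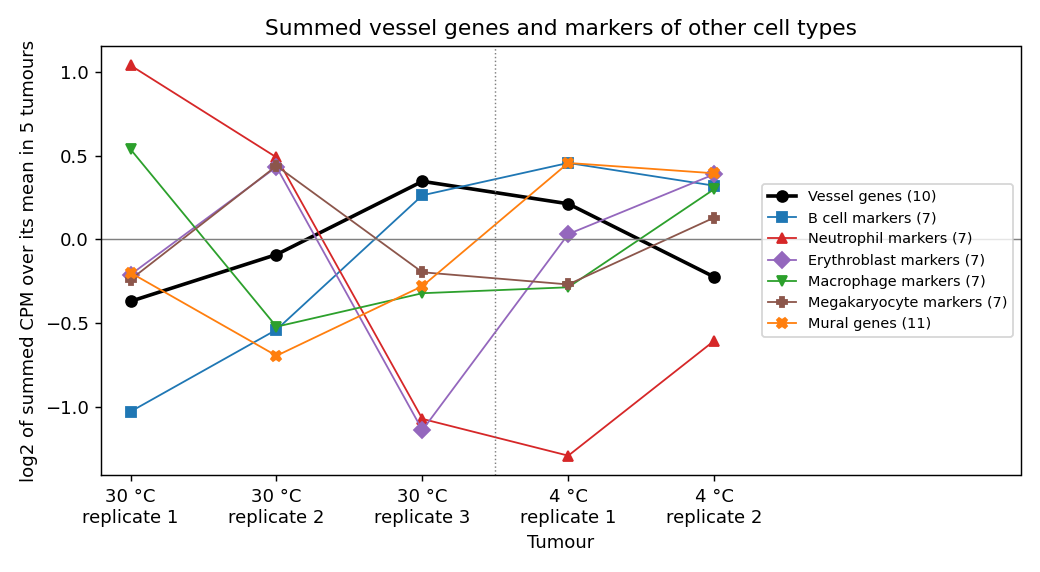
Log2 of the summed CPM of the 10 vessel genes (black) and of marker lists of other cell types, each over its own mean in the 5 tumours. The vessel sum is highest in 30 °C replicate 3 and 4 °C replicate 1 (721 and 657 CPM), where the neutrophil sum is lowest (2787 and 2394 CPM).

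The ligands of the VEGF and Tie receptors did not pass the test. Of 7 VEGF ligands and co-receptors tested, 0 were called, 0 had an unadjusted p under 0.05 and the median log2 fold change was 0.23. Vegfa, the ligand of Kdr and Flt1, had 22.1, 30.2 and 18.4 CPM at 30 °C and 30.4 and 24.7 CPM at 4 °C, so the groups overlapped (log2 fold change 0.23, SE 0.26, edgeR adjusted p = 0.887). Vegfc, the ligand of Flt4, had 4.90, 4.76 and 5.59 CPM at 30 °C and 5.67 and 7.97 CPM at 4 °C, with both values at 4 °C above the others (log2 fold change 0.42, SE 0.29, edgeR adjusted p = 0.834). Of 5 ligands and partners of the Tie receptors, 0 were called. Angpt2, the context-dependent antagonist of Tek made by endothelium, had 3.51, 4.27 and 9.13 CPM at 30 °C and 12.0 and 12.5 CPM at 4 °C. Its groups did not overlap, and its log2 fold change of 1.11 (SE 0.43) had an edgeR adjusted p of 0.716. Angpt4 had 0.480 to 2.61 CPM over the 5 tumours, with a log2 fold change of -0.71 (SE 0.84, edgeR adjusted p = 0.892). Angpt1, the agonist of Tek, named after its values were seen, ranged from 15.6 to 114 CPM. It was 114 CPM in 30 °C replicate 1 and 90.0 CPM in 4 °C replicate 2, where most vessel genes were lowest after TMM scaling.

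Among 11 tested partners of endoglin, 0 were called, with a median log2 fold change of 0.10. An unadjusted p under 0.05 was found for 1, against 6.76% of all tested genes. Id3, a target of BMP signalling, had 42.2, 34.8 and 41.0 CPM at 30 °C and 56.8 and 73.0 CPM at 4 °C, a log2 fold change of 0.72 (SE 0.19, edgeR adjusted p = 0.689). Tgfb1, a ligand of the same family made by many cells, had 206 to 258 CPM at 30 °C and 259 and 293 CPM at 4 °C (log2 fold change 0.22, SE 0.17, edgeR adjusted p = 0.855). The endoglin ligands Gdf2 (BMP9) and Bmp10, named after their values were seen, had at most 1 count in any tumour, under the floor of 3 counts. Among 13 endothelial transcription factors, 0 were called and the median was 0.12. At an unadjusted p under 0.05, 1 was higher and 1 lower, against 2.58% and 4.17% of all tested genes. Their groups did not overlap for 2 higher and 2 lower genes, against 12.2% and 11%. Klf2, a factor induced by flow in endothelium and also present in lymphocytes, had 112, 94.4 and 127 CPM at 30 °C and 178 and 209 CPM at 4 °C (log2 fold change 0.80, SE 0.19, edgeR adjusted p = 0.689). Tal1, shared by endothelium and erythroid cells, had 185, 218 and 123 CPM at 30 °C and 97.0 and 103 CPM at 4 °C (log2 fold change -0.81, SE 0.27, edgeR adjusted p = 0.692). Both had groups that did not overlap.

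Other endothelial surface and junction genes had a higher median than the 10 vessel genes. Of 23 tested, 0 were called, 18 had estimates above 0 and 5 below, and the median log2 fold change was 0.31, where 50.7% of all tested genes had estimates above 0. The groups did not overlap for 7, each higher at 4 °C, against 12.2% of all tested genes. Icam2, an adhesion molecule of endothelium and leukocytes, had 27.8, 25.4 and 34.5 CPM at 30 °C and 46.2 and 48.6 CPM at 4 °C, a log2 fold change of 0.70 (SE 0.19, edgeR adjusted p = 0.689). Cldn5, the claudin of endothelial tight junctions, had 37.8, 32.3 and 38.2 CPM at 30 °C and 53.8 and 54.2 CPM at 4 °C, a log2 fold change of 0.58 (SE 0.17, edgeR adjusted p = 0.689). At both temperatures the tumours of a group differed less for Cldn5 than for Kdr or Stab2. Jam3 and Ecscr, named after their values were seen, were the other 2 with an unadjusted p under 0.05. That gives 4 of 23, each higher at 4 °C, against 2.58% of all tested genes. Of these 23 genes, 12 shared both tumour orders described for the vessel genes, or 52.2%, against 37% of all tested genes.

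Lists of vessel type had 0 genes called by edgeR. Nor did DESeq2 call any gene of the lists of ligands, partners, transcription factors, surface genes and vessel types given here. Of 16 arterial and tip cell genes, 14 had estimates above 0 and the median was 0.28, where 50.7% of all tested genes had estimates above 0. Their groups did not overlap for 5 higher genes and 1 lower gene, against 12.2% and 11% of all tested genes. Gja4, the connexin of arterial endothelium, had 4.58, 5.26 and 5.81 CPM at 30 °C and 7.76 and 9.65 CPM at 4 °C (log2 fold change 0.74, SE 0.27, edgeR adjusted p = 0.706). Bmx, a kinase of arterial endothelium and myeloid cells, had 5.64, 6.32 and 4.06 CPM at 30 °C and 1.54 and 2.58 CPM at 4 °C, with a log2 fold change of -1.37 (SE 0.40, edgeR adjusted p = 0.689). Of 9 tested venous and high endothelial venule genes, the median was 0.19. At an unadjusted p under 0.05, 2 were higher and 2 lower, against 2.58% and 4.17% of all tested genes. Their groups did not overlap for 2 higher and 2 lower genes, against 12.2% and 11%. Madcam1, an addressin of venules that is also found in the marginal sinus of the spleen, had 9.79, 9.28 and 12.4 CPM at 30 °C and 18.1 and 22.1 CPM at 4 °C (log2 fold change 0.94, SE 0.23, edgeR adjusted p = 0.689). Nr2f2, the venous identity factor, had 28.3, 19.4 and 24.1 CPM at 30 °C and 39.0 and 39.1 CPM at 4 °C (log2 fold change 0.71, SE 0.21, edgeR adjusted p = 0.690). Selp and Sele, selectin genes of this list named after their values were seen, had estimates of -1.03 and -2.36 (SE 0.40 and 0.77, edgeR adjusted p = 0.716 and 0.692). Sele rested on 14, 6 and 38 counts at 30 °C and 5 and 2 counts at 4 °C. Whether the Selp transcripts came from endothelium was not tested.

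Of 7 lymphatic genes, 0 were called and 0 had an unadjusted p under 0.05, with a median of 0.23. Lyve1, the hyaluronan receptor of lymphatic and some sinusoidal endothelium, was at 9 to 13 counts in 4 tumours and 59 counts in 30 °C replicate 2, the tumour in which Emcn was also highest (log2 fold change -1.80, SE 1.15, edgeR adjusted p = 0.819). Ccl21a, a chemokine of lymphatic and lymphoid stroma, had 0 to 12 counts at 30 °C and 18 and 19 counts at 4 °C (log2 fold change 1.34, SE 0.89, edgeR adjusted p = 0.833). Of 10 other sinusoidal and scavenger genes tested, 0 were called and the median was 0.13, and 4 had groups that did not overlap, each higher at 4 °C, against 12.2% of all tested genes. Dnase1l3, a secreted nuclease of sinusoidal endothelium, dendritic cells and macrophages, had 135, 118 and 185 CPM at 30 °C and 243 and 247 CPM at 4 °C (log2 fold change 0.74, SE 0.22, edgeR adjusted p = 0.692). Gpr182, an endothelial receptor of sinusoids, had 30.3, 14.4 and 23.6 CPM at 30 °C and 35.6 and 30.4 CPM at 4 °C (log2 fold change 0.54, SE 0.32, edgeR adjusted p = 0.808). Stab2 overlapped between groups where these 2 did not, but these were named for the smallest p of their list. The groups of Gpr182 were apart by only 30.4 against 30.3 CPM. Lyve1, which is also on this list, overlapped. Whether the fold changes of Stab2 and Dnase1l3 differ from each other was not tested.

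**Figure D5:**
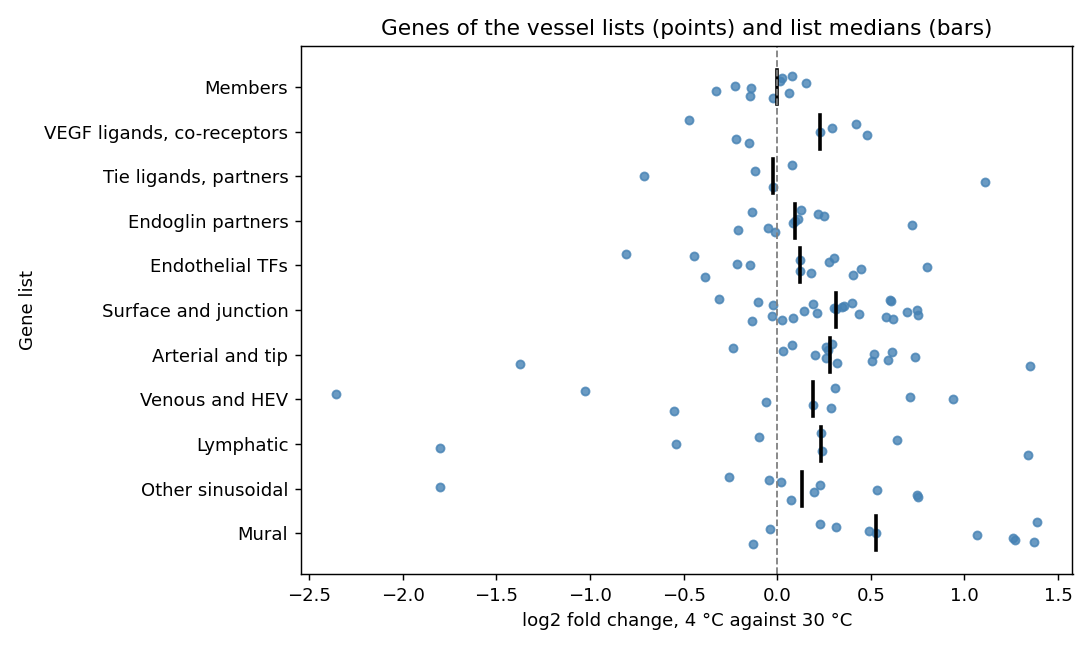
Log2 fold change of 4 °C against 30 °C for each tested gene (points) of the 10 vessel genes (Members) and of 10 related lists, with the list median as a bar (HEV, high endothelial venule). The 10 vessel genes lie between -0.33 and 0.16, and the mural list has the highest median at 0.53.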

How the data were processed

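RNA from 3 CRC tumours at 30 °C and 2 at 4 °C was sequenced on Illumina libraries. The deposited values are whole numbers with a different total in each tumour and were taken as raw counts of reads per gene. The study's methods name featureCounts on Gencode vM19 for the counting, whereas the submitters' processing notes name fastp, HISAT, RSEM and GRCm38, so which counter made the deposited counts is uncertain. The settings for strand and for reads that map to several genes are not given in the sources used here. Of 54446 entries, 333 without a name (0.0101% to 0.0170% of counts) were left out, and where 97 symbols were repeated, the symbol was given to the most abundant entry.

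Counts were filtered with filterByExpr of edgeR 4.0.16 in R 4.3.3, which kept 16133 genes. They were scaled by TMM and compared by the quasi-likelihood F-test with robust estimation, no covariate and Benjamini-Hochberg adjustment over all tested genes, with calls at an adjusted p under 0.05. This differs from the Wald test of the study's methods, which was run with DESeq2 1.42.0 as an alternative. TMM factors ran from 0.738 (30 °C replicate 2) to 1.13. A count of 3 was taken as the floor, equal to 0.148 to 0.185 CPM. The test was checked on simulated data. Poisson intervals came from scipy 1.17.1, and positions and exon lengths from GENCODE M21 on GRCm38. Libraries of a group differed by more than counting noise.

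The members and the gene lists were chosen with earlier results of these data known. Genes named were the 10 members and, from each list, those called or else the 2 with the smallest p, and others are marked where they appear. Alternatives were DESeq2, RLE, upper-quartile and no scaling, other count filters, a block for the replicate number, estimation that was not robust, removal of acinar genes, and leaving out tumours. The runs without scaling factors, without both acinar-rich tumours and of DESeq2 without 30 °C replicate 2 were chosen after seeing the data.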

Additional observations from a re-analysis of the deposited data

How the results depend on the processing

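With 2 tumours at 4 °C and intervals of about 0.80 (log2), changes of moderate size in the vessel genes could not be seen, and leaving out a tumour at 4 °C leaves 1, which is assumed to vary like the others. No vessel gene was called under any of the 16 other fits, in which their edgeR or DESeq2 adjusted p ran from 0.635 to 1. Over all genes, 0 calls became 118 with DESeq2 (26 higher, 92 lower), 3 with DESeq2 without 30 °C replicate 2, 8 without scaling factors and 1090 at an unadjusted p under 0.05. Of these the unadjusted calls split into 417 higher and 673 lower with TMM, and into 558 and 570 with upper-quartile scaling. Without scaling factors the median of all genes moved by 0.10 (log2). That run differed from the main fit only in these factors, which in the main fit ran from 0.738 (30 °C replicate 2) to 1.13. Why the factors differ between tumours was not tested. The replicate block gave 44 calls, 1 higher and 43 lower, 0 of them vessel genes. The labels state no shared batch or animal for a number. Only 2 pairs share one, and with 2 tumours at 4 °C their deviations mirror each other, so the correlations of same-numbered tumours (-0.25 and 0.26) do not settle whether the numbers pair them. Under the block the log2 fold changes of Cdh5 and Kdr became 0.15 and 0.063.

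Direction also turned for Cdh5 with upper-quartile scaling (0.027) and without scaling factors (0.069), and for Emcn without scaling factors (0.084). Without both acinar-rich tumours it turned for Cdh5 (0.12), Kdr (0.18), Flt1 (0.011) and Flt4 (0.18), and 3 of 10 vessel genes had groups that did not overlap, against 60.6% of all tested genes. With DESeq2 without 30 °C replicate 2 it turned for Eng (-0.019), Emcn (0.57) and Stab2 (-0.060). Leaving out 1 tumour at a time gave 0 calls over all genes and 0 to 4 vessel genes without overlap, where 29.2% to 59.5% of all tested genes did not overlap. The median of the 10 ran from -0.31 to 0.21. The log2 fold change ran from 0.0055 to 0.37 for Pecam1, -0.30 to 0.20 for Cdh5, -0.73 to 0.13 for Kdr, -0.73 to -0.032 for Flt1, -0.64 to 0.21 for Flt4, -0.59 to 0.44 for Tek, -0.15 to 0.27 for Tie1, -0.021 to 0.23 for Eng, -0.95 to 0.56 for Emcn and -0.31 to 0.36 for Stab2.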

Other observations

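Pericyte and smooth muscle genes, which belong to the outer wall of vessels, had the highest median of the vessel lists at 0.53, with 9 of 11 estimates above 0. In edgeR 0 passed the adjusted threshold. The groups did not overlap for 6 of 11, each higher at 4 °C, where 12.2% of all tested genes were, and 5 had an unadjusted p under 0.05, against 2.58% of all tested genes in that direction. Tagln (transgelin, an actin-binding protein of smooth muscle) had 23.9, 22.3 and 29.6 CPM at 30 °C and 72.2 and 60.6 CPM at 4 °C, a log2 fold change of 1.39 (SE 0.20, edgeR adjusted p = 0.689). Acta2 (smooth muscle actin) had 71.8, 53.6 and 78.0 CPM at 30 °C and 161 and 190 CPM at 4 °C, a log2 fold change of 1.37 (SE 0.21, edgeR adjusted p = 0.689). DESeq2 called 4 of the 11, against 1.01% of the genes to which it gave an adjusted p, with adjusted p of 5.7e-05 for Tagln, 0.000186 for Acta2, 0.00293 for Des and 0.0299 for Cnn1. Without 30 °C replicate 2 it called 0 of them, with adjusted p of 0.0908 for Tagln and 0.0668 for Acta2 and log2 fold changes of 1.30 and 1.22, beside 1.38 and 1.36 with all tumours. Without both acinar-rich tumours the edgeR log2 fold changes of Tagln and Acta2 were 1.41 and 1.08. Des, Cnn1 and Kcnj8, named after their values were seen, were the other 3 with an unadjusted p under 0.05 in edgeR. Among pericyte genes, Kcnj8 had a log2 fold change of 0.53 (SE 0.17, edgeR adjusted p = 0.692). Pdgfrb and Rgs5, pericyte genes also named then, had estimates of 0.31 and 0.23 and overlapping groups. Muscle genes such as Tagln and Acta2 are also made by fibroblasts and by the capsule of the spleen. The splenic mesenchyme factors Tlx1 and Nkx2-5 stood at 0.75 and 0.86 (SE 0.19 and 0.27, edgeR adjusted p = 0.689 and 0.692). The part of these cells was not tested.

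The lists of other cells had 0 called genes in edgeR and 1, the erythroblast gene Ermap (log2 fold change -1.16 in edgeR), in DESeq2. With the replicate number as a block, edgeR called 13 of the 20 acinar genes and the neutrophil gene Ltf. Over all tested genes, 2.58% were higher and 4.17% lower at an unadjusted p under 0.05 in edgeR. Median log2 fold changes were 0.71 for B cells, with 3 of 7 genes higher at that threshold, and -1.37 for neutrophils, with 1 of 7 lower. They were -0.64 for erythroblasts, whose 7 genes had 3 estimates above 0 and 4 below, with 2 lower at an unadjusted p under 0.05, 0.23 for macrophages and -0.07 for megakaryocytes, both with 0 of 7. For the splenic factors the median was 0.75, with 2 of 3 higher. It was -6.56 for the 20 acinar genes and -1.10 for the 7 tested epithelial genes, both with 0 at an unadjusted p under 0.05, and the acinar values rest on 30 °C replicate 2. The genes with the smallest p were Fcmr (0.96) and Cd79b (0.85) for B cells, Ltf (-1.34) and Mpo (-1.82) for neutrophils, and Ermap and Slc4a1 (-0.74) for erythroblasts, given as log2 fold changes. They were Csf1r (0.27) and C1qc (0.35) for macrophages and Itga2b (-0.20) and Gp1ba (-0.22) for megakaryocytes, with overlapping groups. For the acinar list they were Cela1 (-6.68, SE 4.85) and Gp2 (-6.73, SE 5.64), and for the epithelial list Cdh1 (-2.37, SE 1.14) and Cldn7 (-1.75, SE 1.00).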
